A study of Mus musculus with 44 samples.

Results

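Dimethylation of lysine 4 on histone H3 (H3K4me2) was set against IgG background at the start sites of genes in HPC7 cells that carried wild-type Snai1. Each member is 1 window around a transcription start site, 1 per Entrez gene, and a window was taken where the 2 IgG libraries held on average at least 1 read. This gave 26841 of the 27095 windows in the deposited count table. The rule used IgG reads and no H3K4me2 value. The 254 windows left out were nearly empty: 125 had no read in any H3K4me2 library, and the highest count of any of them in 1 library was 16. At the edge of the rule, the 102 windows with a mean of exactly 1 IgG read and the 140 with a mean of 0.5 both had a median H3K4me2 count of 0.

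HPC7 is a mouse haematopoietic progenitor line that grows in RPMI medium with stem cell factor. The libraries used are H3K4me2 in cells with wild-type Snai1 (3 libraries), IgG in the same cells (2 libraries), and monomethylation of the same residue (H3K4me1) in the same cells (3 libraries). All were transduced with the retroviral vector MSCV-IRES-GFP holding wild-type Snai1 cDNA, sorted for GFP after 1 week and grown on, so these cells carry Snai1 in the vector besides the endogenous gene. The study also had cells with empty vector and cells with a Snai1 whose phenylalanine at position 5 was changed to alanine, which impairs its interaction with the demethylase Lsd1, but the IgG libraries analysed here come from wild-type Snai1 cells only. The replicates are numbered, and nothing says that they are separate cultures or transductions, so the p-values measure the spread between these libraries.

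H3K4me2 is laid down by the MLL and SET1 methyltransferase complexes and is removed by Lsd1, which acts on the mono- and dimethylated forms. It surrounds the start sites of active genes, is also found at enhancers, and in blood progenitors covers many lineage genes that are not yet strongly transcribed. Snai1 is a zinc finger repressor whose N-terminal SNAG domain binds Lsd1, as does that of the blood repressors Gfi1 and Gfi1b. IgG chromatin precipitation has no target, and its reads show how open, copied or mappable a region is.

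The 8 start-site sequences printed here show which promoters carried the mark and which did not, with every CpG in capitals. Each is 300 bases of RefSeq GRCm38.p6 (250 before to 50 after the start), written 5′ to 3′ on the gene's strand. The promoters of Bcl11a (chr11:24080445-24080744, + strand), a transcription factor of lymphoid and globin gene control, and of Rcor1 (chr12:111039117-111039416, + strand), the CoREST partner of Lsd1, are rich in CpG (23 and 31) and lay in windows with strong H3K4me2.
Bcl11a: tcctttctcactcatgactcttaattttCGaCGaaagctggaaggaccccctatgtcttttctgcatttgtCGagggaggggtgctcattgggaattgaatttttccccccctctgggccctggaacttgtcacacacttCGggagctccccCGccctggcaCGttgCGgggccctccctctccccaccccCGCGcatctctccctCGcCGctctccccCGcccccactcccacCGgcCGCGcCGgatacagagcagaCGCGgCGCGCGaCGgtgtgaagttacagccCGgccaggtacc
Rcor1: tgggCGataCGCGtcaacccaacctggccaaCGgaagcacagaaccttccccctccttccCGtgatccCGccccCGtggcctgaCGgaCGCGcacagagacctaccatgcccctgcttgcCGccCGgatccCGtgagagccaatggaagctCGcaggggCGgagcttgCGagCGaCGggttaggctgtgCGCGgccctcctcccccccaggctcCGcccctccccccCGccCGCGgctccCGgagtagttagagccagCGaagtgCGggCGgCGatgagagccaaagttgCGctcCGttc
The promoters of Mpo (chr11:87793534-87793833, + strand), the myeloperoxidase of neutrophil granules, and of Cpa3 (chr3:20242132-20242431, − strand), a mast cell carboxypeptidase, have only 2 and 3 CpG, and their windows also carried strong H3K4me2.
Mpo: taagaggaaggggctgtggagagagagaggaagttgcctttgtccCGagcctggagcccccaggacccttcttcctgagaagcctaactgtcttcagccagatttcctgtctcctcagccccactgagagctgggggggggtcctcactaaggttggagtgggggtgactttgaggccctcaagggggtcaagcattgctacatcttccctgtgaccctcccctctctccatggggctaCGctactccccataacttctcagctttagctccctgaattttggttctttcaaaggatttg
Cpa3: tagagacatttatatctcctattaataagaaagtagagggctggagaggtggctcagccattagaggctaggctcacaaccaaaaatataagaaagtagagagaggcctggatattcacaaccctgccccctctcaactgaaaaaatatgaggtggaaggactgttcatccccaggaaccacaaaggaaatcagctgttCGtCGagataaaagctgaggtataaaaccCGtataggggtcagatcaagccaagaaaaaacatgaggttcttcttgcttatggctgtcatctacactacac
The promoters of Sox1 (chr8:12395269-12395568, + strand), a neural transcription factor, and of Twist1 (chr12:33957421-33957720, + strand), a mesenchymal one, hold 37 and 27 CpG, and their windows stayed at the level of silent genes.
Sox1: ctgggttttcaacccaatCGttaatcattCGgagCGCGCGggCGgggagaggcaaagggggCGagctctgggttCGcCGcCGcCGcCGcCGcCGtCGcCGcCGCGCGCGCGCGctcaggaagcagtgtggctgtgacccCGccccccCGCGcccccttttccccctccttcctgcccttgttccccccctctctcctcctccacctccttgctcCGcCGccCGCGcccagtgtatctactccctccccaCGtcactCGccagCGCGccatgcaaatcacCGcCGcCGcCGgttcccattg
Twist1: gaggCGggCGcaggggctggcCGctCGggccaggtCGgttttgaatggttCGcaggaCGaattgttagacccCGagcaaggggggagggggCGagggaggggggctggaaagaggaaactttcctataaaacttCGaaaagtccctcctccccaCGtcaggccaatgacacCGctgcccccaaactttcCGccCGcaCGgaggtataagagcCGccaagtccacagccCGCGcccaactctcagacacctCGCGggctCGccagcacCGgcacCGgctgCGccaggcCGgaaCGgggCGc
Fcer1a (chr1:173227180-173227479, − strand), a chain of the IgE receptor, shows a promoter with 1 CpG in a window at the level of silent genes. Snai1 (chr2:167537945-167538244, + strand) shows a promoter with 34 CpG in a window between the extremes.
Fcer1a: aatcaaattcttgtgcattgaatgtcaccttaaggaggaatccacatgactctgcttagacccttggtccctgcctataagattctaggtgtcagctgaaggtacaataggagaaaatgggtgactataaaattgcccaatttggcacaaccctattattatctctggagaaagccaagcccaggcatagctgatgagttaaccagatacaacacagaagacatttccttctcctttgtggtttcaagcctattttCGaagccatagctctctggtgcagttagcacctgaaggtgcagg
Snai1: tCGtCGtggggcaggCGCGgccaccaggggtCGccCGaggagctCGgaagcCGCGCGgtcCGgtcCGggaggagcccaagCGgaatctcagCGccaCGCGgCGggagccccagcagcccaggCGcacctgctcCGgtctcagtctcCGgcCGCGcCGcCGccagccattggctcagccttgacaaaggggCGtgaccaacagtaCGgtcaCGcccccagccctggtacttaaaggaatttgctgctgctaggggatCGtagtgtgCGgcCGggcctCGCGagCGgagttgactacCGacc

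Counts over start-site windows summed to 17553273, 9828505 and 10157832 in the H3K4me2 libraries and to 3355479 and 2714255 in the IgG libraries. H3K4me2 replicate 1 stood apart from the others: the variance between libraries was 10.2 and 10.7 times the counting variance in its pairs with replicates 2 and 3, against 2.30 between replicates 2 and 3. The 2 IgG libraries differed by 5.54 times the counting variance. This measure grows with depth, and replicate 1 was the deepest and IgG the shallowest. The SD of the log2 ratio between libraries differed less. It was 0.502 and 0.486 for H3K4me2 replicate 1 with replicates 2 and 3, 0.327 between replicates 2 and 3, and 0.417 for IgG. No pair agreed within counting error. Values are counts scaled to 1 fixed column total in every library (CPM), and the ratio of H3K4me2 over IgG is given as its log2 from edgeR's quasi-likelihood fit, called at a Benjamini-Hochberg adjusted p under 0.05.

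The log2 ratio had 2 peaks that were joined by a filled range. It had 1 peak between -4 and -3.5 and another between 0.5 and 1.25, and its median over all windows was -2.08. Counts fell between the peaks but left no gap. The range -3.75 to -3.5 held 3404 windows, -0.75 to -0.5 held 258, and 0.75 to 1.0 held 2135. By column totals 9490 windows (35.4%) were higher in H3K4me2 than in IgG, 4472 of them (16.7%) at least 2-fold, and 15039 (56.0%) were lower, while scaled to the silent families instead 14465 were higher and only 119 lower. At least 2-fold lower by column totals were 14527 windows (54.1%). With TMM factors 11600 were higher and 13680 lower, and with DESeq2 12348 and 11857. The silent families are the olfactory and vomeronasal receptor genes, which blood cells do not use, and the change of scaling moves the median of all windows by 3.56 on the log2 scale. The level of the silent families is used below as the floor. In IgG their median was 17.3 CPM in replicate 1 and 28.4 CPM in replicate 2, beside 38.4 and 38.3 CPM over all windows. The floor thus differs between the IgG libraries.

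**Figure D1:**
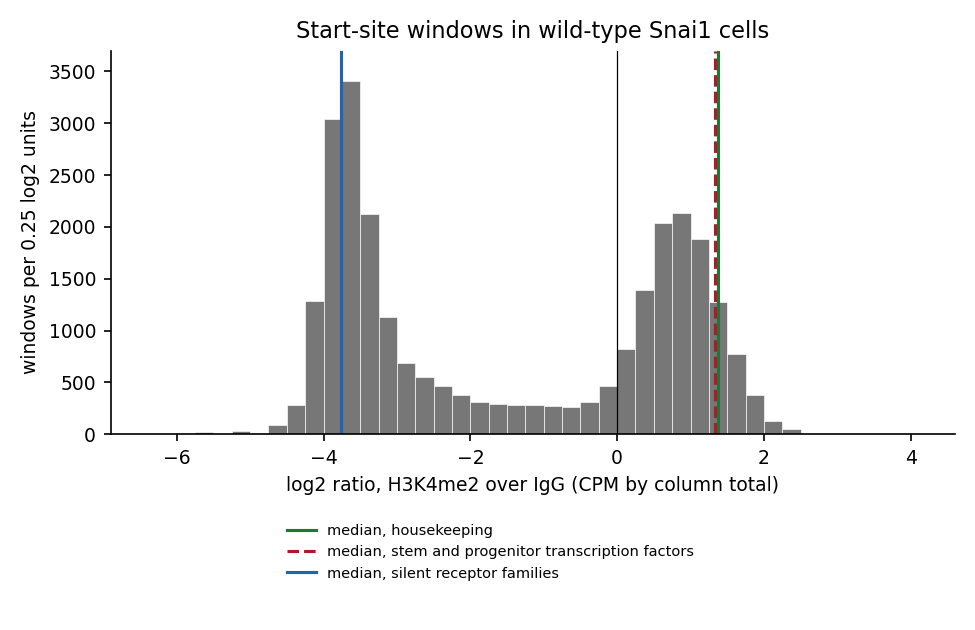
The histogram counts start-site windows (y axis) by log2 ratio of H3K4me2 over IgG (x axis, CPM by column total) in steps of 0.25. Lines mark the medians of the housekeeping list (1.37), the stem and progenitor transcription factors (1.34) and the silent receptor families (-3.76); with scaling to these families the median of all windows moves up by 3.56.

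With both scalings read together, every window has 1 of 3 levels. The 9490 higher windows (35.4%) were higher than IgG under both scalings. An intermediate group of 4975 windows (18.5%) was above the silent families and not higher than IgG by column total, and 12376 (46.1%) were not shown to be above the silent families. Above the silent families were thus 14465 windows (53.9%). The higher windows held 83.1%, 84.0% and 83.6% of the reads of the 3 H3K4me2 libraries, against 42.2% and 37.5% of those of the 2 IgG libraries. At silent level were 3.93%, 2.93% and 3.24% of the H3K4me2 reads, against 37.7% and 43.5% of the IgG reads. These shares describe the levels, which were set from the same libraries. The median H3K4me2 level was 80.7 CPM in higher, 21.0 CPM in intermediate and 2.56 CPM in silent-level windows, beside 41.8, 40.5 and 34.5 CPM for IgG.

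The strongest ratios belonged to genes of several kinds. Rpl36a, a ribosomal protein gene on chromosome X, had 158, 174 and 193 CPM in the H3K4me2 libraries, against 26.8 and 18.4 CPM in the IgG libraries, a log2 ratio of 2.94 ± 0.21 (SE; edgeR adjusted p = 1.46e-07). Its neighbour Btk, the tyrosine kinase of B cell and mast cell receptor signalling, followed at 2.67 and shares reads with it, since their starts lie within 10 kb. Then came the paraspeckle RNA Neat1 (2.51), the H3K27 demethylase gene Kdm6b (2.49), Bcl11a (2.48), the segmentation clock gene Hes7 (2.48), the histone H3 gene H3c8 (2.47), the Hedgehog receptor Ptch1 (2.46), Bahcc1 (2.45) and the actin-binding thymosin Tmsb4x (2.44). The choice of these 10 required that no H3K4me2 library overlapped an IgG library. H3c8 stands in a histone cluster and was taken to share reads with H2ac10, H2bc9 and H4c8. Bcl11a, whose promoter is printed above, had 290.5, 269 and 265 CPM in the H3K4me2 libraries, against 59.0 and 39.1 CPM in the IgG libraries, which is a 5.57-fold difference.

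The 10 called windows with the highest H3K4me2 levels lay on chromosomes 1, 2, 8, 11 and 17, and Kdm6b was among them as well as among the 10 largest ratios. Ptpn7, a phosphatase of blood cells on chromosome 1, led with 330.1, 326 and 326 CPM in the H3K4me2 libraries, against 95.4 and 54.5 CPM in the IgG libraries. Pbx2, Ppp1r18, Clic1, Mdga1 and the bromodomain gene Brd2, all on chromosome 17, averaged 293 to 311 CPM in H3K4me2 and 63.2 to 76.1 CPM in IgG. Ikzf2, a zinc finger gene of the Ikaros family on chromosome 1, averaged 276 CPM in H3K4me2 and 63.0 CPM in IgG, the RNA-binding protein gene Rbm38 on chromosome 2 averaged 286 CPM in H3K4me2 and 84.2 CPM in IgG, and the chromosome 8 gene Irf2bp2 had 364, 233 and 227 CPM in H3K4me2 and 91.5 and 40.5 CPM in IgG. Of the 100 higher windows with the most H3K4me2, 24 were on chromosome 1 and 22 on chromosome 17, although these chromosomes hold 5.49% and 5.40% of such windows. Of the 100 with the largest ratio over IgG, 3 and 8 were on them.

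Whole chromosomes stood apart in H3K4me2 and in IgG alike. Over protein-coding windows, the IgG level relative to the median chromosome was 1.48 and 1.49 in the 2 libraries on chromosome 1, 1.48 and 1.25 on chromosome 17, and 0.448 and 0.519 on chromosome X. On higher windows the 3 H3K4me2 libraries stood at 1.42, 1.45 and 1.48 on chromosome 1, at 1.38, 1.42 and 1.41 on chromosome 17, and at 0.619, 0.610 and 0.646 on chromosome X. Chromosome 8 differed by replicate: H3K4me2 was at 1.48 in replicate 1 and at 1.07 and 1.06 in replicates 2 and 3, and IgG at 1.51 in replicate 1 and 1.17 in replicate 2. The median log2 ratio over IgG in higher windows was 0.94 on chromosome 1, 0.78 on chromosome 8, 1.00 on chromosome 17 and 1.06 on chromosome X. Higher windows were called by this ratio, so a narrow range was partly set in advance. In these windows, within replicate 1 and within replicate 2, chromosome 8 stood at 0.89 and 0.89, chromosome 17 at 0.80 and 1.26. Over all protein-coding windows, silent receptor families left out, the median log2 ratio differed more. It was -0.51 on chromosome 1, 0.03 on chromosome 8, 0.33 on chromosome 17 and -3.2 on chromosome X. H3K4me2 levels of single genes below therefore carry the level of their chromosome, whose part in each was not tested.

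**Figure D2:**
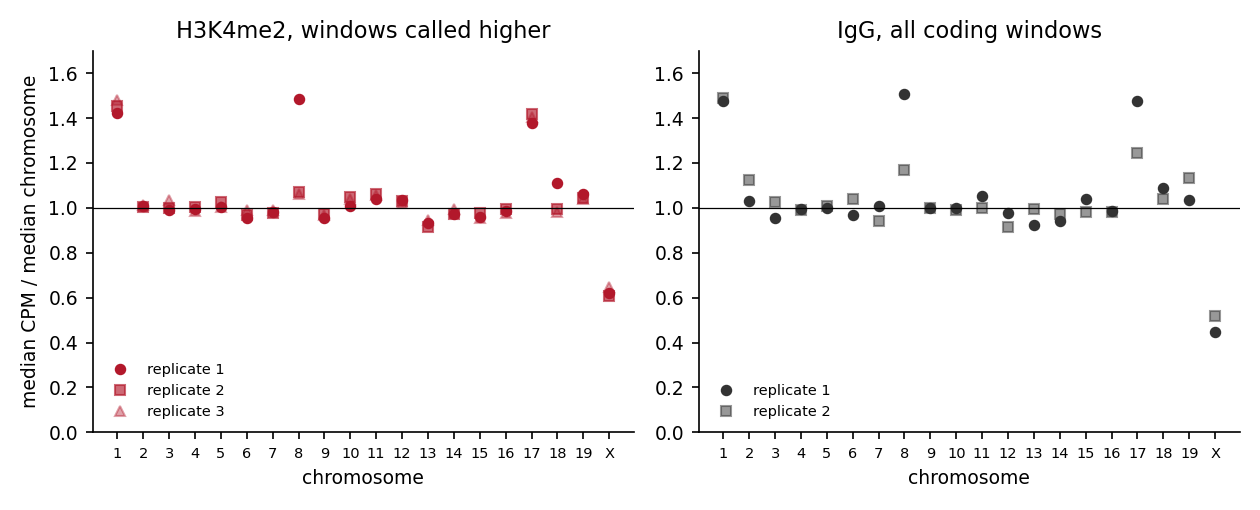
Median CPM of each chromosome divided by that of the median chromosome, 1 symbol per library: H3K4me2 over windows called higher (left) and IgG over all protein-coding windows (right), silent receptor families left out. Chromosomes 1 and 17 were high in every library, chromosome 8 chiefly in replicate 1 of both (1.48 for H3K4me2, 1.51 for IgG), and X was low.

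The label of the cells was set against markers. Of 10 progenitor markers, 8 (Kit, Cd34, Gata2, Tal1, Lyl1, Runx1, Fli1 and Meis1) were higher than IgG, and Lmo2 and Lhx2 were intermediate. Of all windows 35.4% were higher and 18.5% intermediate. Of the 3 defining markers each of B cells, T cells, epithelium, fibroblasts, neurons and hepatocytes, none was higher, although the longer lists of the same cell types, described below, hold higher members, and their H3K4me2 levels ran from 2.14 to 24.96 CPM. Of those 18, 6 were above the silent families (53.9% of all windows), Epcam and Fgb among them.

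Transcription factors of blood stem and progenitor cells were among the most strongly marked genes: 20 of 25 were higher (35.4% of all windows), 4 were intermediate and 1 was at silent level, with a median log2 ratio of 1.34 (all windows -2.08). The 19 members with a listed promoter held a median of 30 CpG. Of all promoters with more than 20 CpG, 70.5% were in higher windows, and the part of CpG content in the list's count was not tested. Tal1 (chr4:115056426-115071755, GRCm38.p6), which with Gata2 is central to the progenitor network, had 266, 202 and 185 CPM in the H3K4me2 libraries, against 54.8 and 35.7 CPM in the IgG libraries (log2 2.26 ± 0.25, SE; edgeR adjusted p = 2.28e-06). Gata2 had 229.8, 204 and 186 CPM in the H3K4me2 libraries, against 62.9 and 29.8 CPM in the IgG libraries (log2 2.14 ± 0.28). Neither gene overlapped between the groups. Nfe2 (2.23) and Ikzf2 (2.13) were close to them, Runx1 stood at 1.31, the myeloid and lymphoid factor Spi1 at 0.88, and Gfi1b at 1.09. The intermediate windows included those of Lmo2, Gfi1 and Lhx2. Erg, an ETS factor of stem cells, had 3.65, 2.04 and 2.76 CPM in the H3K4me2 libraries, against 45 and 40.2 CPM in the IgG libraries. Its log2 ratio of -3.88 was close to the median of the silent families (-3.76), whose windows had a median of 1.62 CPM in H3K4me2 and 23.04 CPM in IgG. Erg has several start sites, and which of them the window covers is not given in the sources used here.

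Lmo2, Gfi1 and Lhx2 turned direction with the scaling. Lmo2, a bridging protein of the Tal1 complex, had 11.3, 19.7 and 20.4 CPM in the H3K4me2 libraries, against 37.9 and 52.3 CPM in the IgG libraries, a log2 ratio of -1.40 by column total and 2.24 by the silent families. Gfi1 had 20.2, 16.99 and 14.96 CPM in the H3K4me2 libraries, against 51.6 and 39.4 CPM in the IgG libraries (log2 -1.39 by column total, 2.14 by the silent families). In Lhx2, the LIM-homeobox gene used to immortalise this line, the groups overlapped, with 49.6, 35.7 and 26.5 CPM in the H3K4me2 libraries, against 61.1 and 47.9 CPM in the IgG libraries. Its log2 ratio was -0.54 by column total (edgeR adjusted p = 0.0387) and 2.99 by the silent families, and the column-total call was lost without H3K4me2 replicate 2 (-0.51, edgeR adjusted p = 0.0595), H3K4me2 replicate 3 (-0.35, 0.1), IgG replicate 1 (-0.35, 0.328) or IgG replicate 2 (-0.70, 0.0589).

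**Figure D3:**
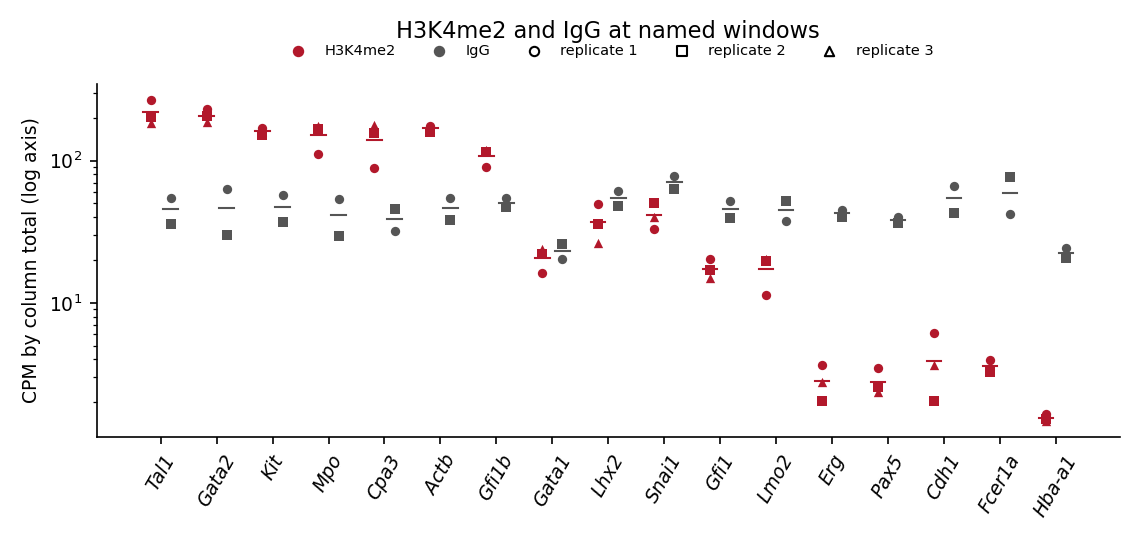
CPM by column total (log axis) of 17 windows in the H3K4me2 libraries (red, left of each pair) and the IgG libraries (grey, right), with the symbol giving the replicate and a line the mean. IgG stays between 20.3 and 78.4 CPM, while H3K4me2 spans from 1.48 CPM in Hba-a1 to 266 CPM in Tal1; by the silent families Gata1, Lhx2, Snai1, Gfi1 and Lmo2 lie above IgG.

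Among cytokine receptors and progenitor surface proteins, 10 of 20 were higher, 8 were intermediate and 2 were at silent level, beside 35.4%, 18.5% and 46.1% of all windows (median log2 0.33). Kit (chr5:75574987-75656722), the receptor of the stem cell factor that the line depends on, had 169.9, 152 and 162 CPM in the H3K4me2 libraries, against 56.9 and 37.2 CPM in the IgG libraries (log2 1.77 ± 0.20, SE; edgeR adjusted p = 2.34e-06). Cd48 (1.41) and the chemokine receptor gene Cxcr4 (1.34) followed. Cd34 had 227, 111 and 121 CPM in the H3K4me2 libraries, against 68.0 and 81.8 CPM in the IgG libraries: the groups did not overlap, yet its ratio was 1.74 within replicate 1 and 0.44 within replicate 2. Its call was lost without IgG replicate 1 (0.91, edgeR adjusted p = 0.0643). The lymphoid receptor gene Il7r (-3.60) and the endothelial and stem cell kinase gene Tek (-3.52) were at silent level, 0.02 and 0.07 when scaled to the silent families.

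Lineage lists were split within themselves. Of 24 neutrophil and monocyte genes, 6 were higher, 11 intermediate and 7 at silent level, beside 35.4%, 18.5% and 46.1% of all windows (median log2 -1.67, or 1.95 by the silent families). Mpo, an early granule gene, had 111, 167 and 174 CPM in the H3K4me2 libraries, against 53.4 and 29.5 CPM in the IgG libraries (log2 1.85 ± 0.26, SE; edgeR adjusted p = 2.1e-05). Cebpe, a granulocyte transcription factor (1.44), and the Fc receptor Fcgr3 (1.21) were also higher. Ctsg, S100a8 and Cybb, which encode a granule protease, a neutrophil calcium-binding protein and an oxidase subunit, lay at -4.14, -3.93 and -3.80 and thus at silent level.

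Of 15 mast cell and basophil genes, 4 were higher, 4 intermediate and 7 at silent level, beside 35.4%, 18.5% and 46.1% of all windows (median log2 -2.68, or 0.94 by the silent families). Cpa3 had 88.4, 155.5 and 177 CPM in the H3K4me2 libraries, against 32.2 and 45.7 CPM in the IgG libraries (log2 1.86 ± 0.29), and the granule proteoglycan gene Srgn (1.96) and the transcription factor Mitf (0.94) were higher too. Fcer1a had 3.93, 3.26 and 3.64 CPM in the H3K4me2 libraries, against 42.0 and 76.6 CPM in the IgG libraries. The proteases Tpsab1 (-4.03) and Mcpt8 (-3.90) stood beside it at silent level. For Mpo and Cpa3, H3K4me2 was lower in replicate 1 than in replicates 2 and 3, and their ratios within replicate 1 were 1.06 and 1.45.

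Of 15 megakaryocyte and platelet genes, 5 were higher, 7 intermediate and 3 at silent level, beside 35.4%, 18.5% and 46.1% of all windows (median log2 -0.97, or 2.66 by the silent families). The platelet chemokine gene Pf4 had 71.4, 66.6 and 68.5 CPM in the H3K4me2 libraries, against 25.3 and 21.7 CPM in the IgG libraries (log2 1.54 ± 0.14), and its window shares reads with that of Ppbp. The integrin gene Itgb3 (1.29) and Gp9 (1.1) were higher, and for Gp9 the call was lost without IgG replicate 2 (0.82, edgeR adjusted p = 0.0597). Thbs1 (-4.0), Gp6 (-3.50) and Tubb1 (-2.68) were at silent level, at -0.43, 0.06 and 0.90 when scaled to the silent families.

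Of 17 erythroid genes, 2 were higher, 9 intermediate and 6 at silent level, beside 35.4%, 18.5% and 46.1% of all windows (median log2 -2.58, or 0.96 by the silent families). The transferrin receptor gene Tfrc (0.93) and the erythroid factor Klf1 (0.67) were the higher ones, Klf1 not without IgG replicate 2 (0.36, edgeR adjusted p = 0.162). The Klf1 window shares reads with those of Dnase2a and Gcdh. Gata1, the master factor of red cells, had 16.2, 21.98 and 24.02 CPM in the H3K4me2 libraries, against 20.3 and 25.8 CPM in the IgG libraries, and the groups overlapped (log2 -0.15, edgeR adjusted p = 0.608; 3.46 by the silent families). The adult alpha-globin gene Hba-a1 had 1.65, 1.53 and 1.48 CPM in the H3K4me2 libraries, against 24.4 and 20.6 CPM in the IgG libraries. Hba-a2 and the spectrin anchor gene Ank1 were at silent level with it, and the 2 alpha-globin genes are near-identical copies, so reads may be split between them.

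Lymphoid genes were mostly intermediate or at silent level. Of 14 B cell genes 2 were higher, 6 intermediate and 6 at silent level, and of 18 T and NK cell genes 1 was higher, 8 intermediate and 9 at silent level (of all windows 35.4%, 18.5% and 46.1%). The median log2 ratio was -2.02 in the B cell list and -2.82 in the T and NK cell list (1.52 and 0.76 by the silent families), against -2.08 for all windows (1.47). The surrogate light chain gene Vpreb1 had 56.4, 61.4 and 61.8 CPM in the H3K4me2 libraries, against 24.7 and 25.8 CPM in the IgG libraries (log2 1.24 ± 0.14), and shares reads with Igll1 and Top3b. The recombinase gene Rag2 (1.11) and the transcription factor gene Gata3 (1.1) were higher. The B cell factors Pax5 (-3.75) and Ebf1 (-3.54) and the T cell factors Tcf7 (-3.75) and Bcl11b (-3.74) were at silent level. Lck (-0.25) and Cd3d (-0.30) were intermediate and stood at 3.32 and 3.29 by the silent families.

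**Figure D4:**
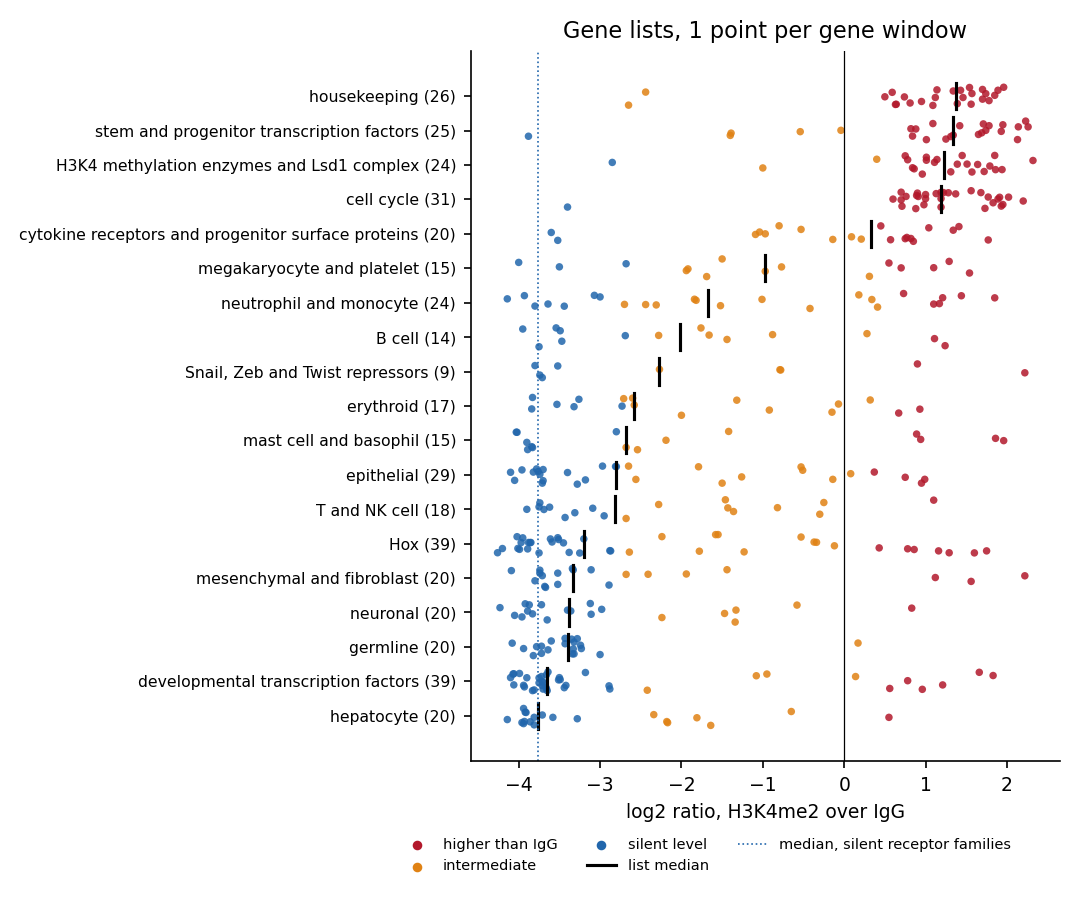
The log2 ratio of H3K4me2 over IgG (x axis, column totals) for each member of 19 gene lists (rows, list size in brackets), coloured by level, with the list median as a black bar. Housekeeping, stem and progenitor, H3K4 enzyme and cell cycle genes lie mostly right of 0, and genes of other tissues gather at the silent receptor families (dotted, -3.76); scaled to these families the median of all windows moves up by 3.56.

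Genes used by every dividing cell were marked almost throughout. Higher were 24 of 26 housekeeping genes (median log2 1.37), 30 of 31 cell cycle genes (1.19) and 21 of 24 genes of H3K4 methyltransferases, demethylases and the Lsd1 complex (1.23), beside 35.4% of all windows. Actb had 174, 160.1 and 170.1 CPM in the H3K4me2 libraries, against 54.5 and 38.3 CPM in the IgG libraries. Ccnd2 (2.2), Cdk6 (2.02) and Myc (1.95) led the cell cycle list, and the cell cycle inhibitor gene Cdkn2b (-3.40) was its sole member at silent level. Mcm5 (0.60) was no longer called without H3K4me2 replicate 1 (0.39, edgeR adjusted p = 0.0666) or IgG replicate 2 (0.26, 0.318), and in the housekeeping list the call of Psmb2 (0.50) was lost without IgG replicate 1 (0.31, 0.121). Setd1b (2.32) and Kmt2d (1.94), both H3K4 methyltransferases, and Rcor1 (1.86) led the enzyme list. Kdm1a (chr4:136550533-136602787), which encodes Lsd1, had 56.2, 73.5 and 70.3 CPM in the H3K4me2 libraries, against 42.0 and 35.0 CPM in the IgG libraries (log2 0.78 ± 0.16, SE; edgeR adjusted p = 0.000474). The methyltransferase complex subunit genes Ash2l (-1.0) and Cxxc1 (0.40) were intermediate, at 2.56 and 3.90 by the silent families.

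A few broadly used genes had low windows. Ywhaz had 5.53, 6.31 and 6.89 CPM in the H3K4me2 libraries, against 35.8 and 42.7 CPM in the IgG libraries, and Rab7 had 6.61, 7.33 and 9.25 CPM, against 44.7 and 38.7 CPM. Both were intermediate (0.94 and 1.11 by the silent families). Dpy30, a subunit shared by the H3K4 methyltransferase complexes, was at silent level with 5.01, 5.29 and 6.99 CPM in the H3K4me2 libraries, against 38.4 and 44.6 CPM in the IgG libraries. Which annotated start the table used for each of them is not given in the sources used here.

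Snai1 itself had an intermediate window. It held 32.8, 50.7 and 39.9 CPM in the H3K4me2 libraries, against 78.4 and 62.6 CPM in the IgG libraries, with no overlap (log2 -0.79 ± 0.18 by column total, edgeR adjusted p = 0.00106; 2.78 by the silent families). The IgG level at Snai1 was higher than in 99.5% of all windows and 98.7% of those on chromosome 2. At Cd34 the IgG level was higher than in 99.7% of all windows and 98.75% of those on chromosome 1. At Lhx2 the IgG level was higher than in 91.7% of all windows and 92.35% of those on chromosome 2. The retroviral vector holds Snai1 cDNA, and its part in the reads of either library type was not tested. Of the 9 repressors of the Snail, Scratch, Zeb and Twist families, 2 were higher (35.4% of all windows), Zeb2 at 2.22 and Scrt1 at 0.90. Snai3 was intermediate and its groups overlapped, with 54.4, 32.3 and 28.8 CPM in the H3K4me2 libraries, against 81.7 and 50.8 CPM in the IgG libraries. Zeb1 (-3.74), Twist1 (-3.80) and Twist2 (-3.71) were at silent level. The epithelial cadherin gene Cdh1, a textbook target of Snai1, was at silent level too, with 6.10, 2.04 and 3.64 CPM in the H3K4me2 libraries, against 66.5 and 42.7 CPM in the IgG libraries. In H3K4me2 Cdh1 averaged 3.92 CPM in these cells, 4.92 CPM with empty vector and 5.57 CPM with mutant Snai1, a comparison that was not tested.

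In lists of other tissues fewer members were higher than the 35.4% of all windows, and more were at silent level than the 46.1% of all windows, by counts that were not tested. Higher were 4 of 29 epithelial genes, 3 of 20 mesenchymal, 1 of 20 neuronal, 1 of 20 hepatocyte, 6 of 39 developmental transcription factor and 0 of 20 germline genes. At silent level were 16, 13, 14, 13, 29 and 19 of them in the same order. The medians of these lists lay between -3.76 and -2.81, or between -0.16 and 0.75 by the silent families, against -2.08 and 1.47 for all windows. The higher members were led in the epithelial list by the junction genes Tjp3 (0.99) and Crb3 (0.95), in the mesenchymal list by Zeb2 and the intermediate filament gene Vim (1.56), and they included the homeobox genes Irx5 (1.83) and Dlx1 (1.21) among developmental factors. Tjp3 shares reads with Pip5k1c and Crb3 with Slc25a23. Pdgfrb (1.12) in the mesenchymal list, Nefh (0.83) in the neuronal list and Apoa2 (0.55) in the hepatocyte list were also higher, and Apoa2 shares reads with Fcer1g, a subunit of Fc receptors in blood cells.

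Called windows with a mean IgG count of at least 20, no overlap between groups and no predicted gene were ranked. The weakest were mostly those of chemosensory receptors and skin genes. Of the 10 smallest ratios, 5 belonged to olfactory receptors, among them Olfr1465 (-4.81), and 2 to vomeronasal receptors. The others were the keratin-associated protein genes Krtap4-8 (-4.75) and Krtap4-9 (-4.72) and the reproductive homeobox gene Rhox2g (-4.67). Below that count ratios ran lower, as in Vmn2r47 (-6.35), with 3 and 4 IgG reads and no H3K4me2 read. Olfr1465 averaged 0.873 CPM in H3K4me2 and 25.2 CPM in IgG. Of the silent families themselves, 43 of 1466 windows were intermediate and none was higher. These windows set the floor, so their low share above it largely follows from the scaling. None of 55 keratin-associated protein windows and 4 of 42 beta-defensin windows were above the silent families, beside 53.9% of all windows.

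The Hox clusters were marked in parts. Of 39 Hox genes 7 were higher, 10 intermediate and 22 at silent level, beside 35.4%, 18.5% and 46.1% of all windows (median log2 -3.20, or 0.34 by the silent families). The higher ones were Hoxa3 (1.6), Hoxa5 (1.16), Hoxa6 (1.75) and Hoxa7 (0.43), whose starts lie near each other and share reads, Hoxb3 (0.78) and Hoxb4 (1.29), and Hoxd12 (0.86). Hoxa5, Hoxa7, Hoxb3 and Hoxd12 are named after their values were seen, and Hoxa7 was no longer called without IgG replicate 2 (0.30, edgeR adjusted p = 0.129), H3K4me2 replicate 2 (0.45, 0.0653) or H3K4me2 replicate 3 (0.45, 0.056). Hoxa6 had 108, 98.3 and 88.5 CPM in the H3K4me2 libraries, against 36.1 and 21.7 CPM in the IgG libraries, whereas Hoxa10 had 3.30, 1.32 and 1.18 CPM, against 41.1 and 38.3 CPM. None of the 9 measured Hoxc genes was higher.

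Marked windows had CpG-rich promoters, which the choice of windows did not use. Over the 15553 windows whose gene has 1 RefSeq promoter, the median promoter held 23 CpG in higher, 11 in intermediate and 4 in silent-level windows. Of promoters with at most 2 CpG 2.79% were in higher windows, and of those with 31 to 65 CpG 71.8% (percent of all windows higher 35.4). Spearman's rho between CpG count and log2 ratio was 0.59 across these windows, which share libraries and base composition and are not replicates. IgG also moved with CpG: at 0 to 2 CpG its median was 23.8 CPM in replicate 1 and 32.4 CPM in replicate 2, and at 31 to 65 CpG 42.9 and 40.5 CPM. The median H3K4me2 level was 2.23 CPM at 0 to 2 CpG and 77.0 CPM at 31 to 65.

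**Figure D5:**
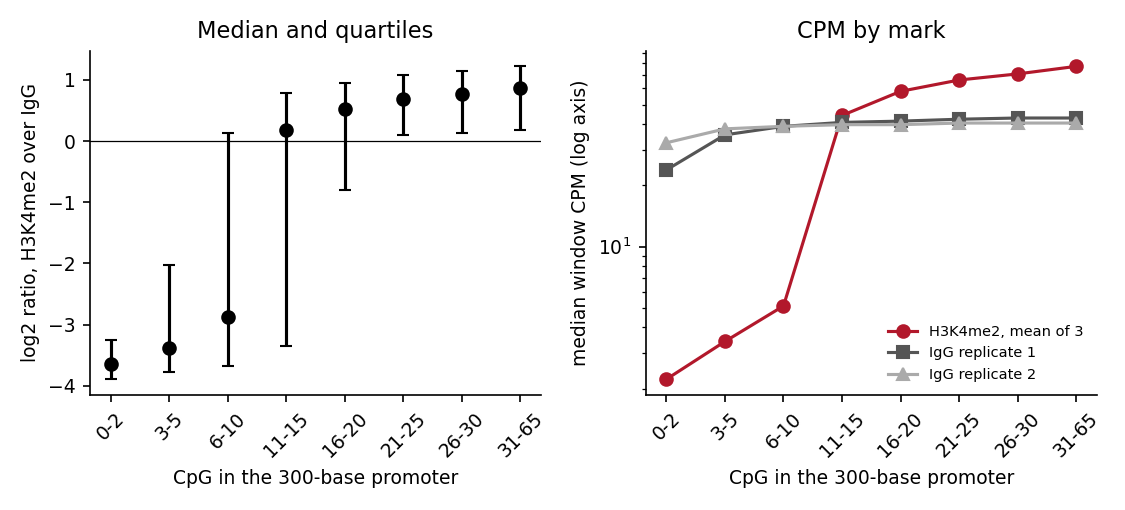
Start-site windows binned by the number of CpG in the 300-base promoter: left, median log2 ratio of H3K4me2 over IgG with quartiles as bars; right, median CPM (log axis) of the mean H3K4me2 library and of each IgG library. The median log2 ratio is -3.65 at 0 to 2 CpG and 0.86 at 31 to 65, and IgG changes far less than H3K4me2.

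Single windows went against this relation. Of the 2004 promoters with 31 to 65 CpG, 349 (17.4%) were in silent-level windows, the printed Sox1 promoter among them. Sox1 had 3.70, 1.83 and 1.38 CPM in the H3K4me2 libraries, against 44.7 and 36.5 CPM in the IgG libraries. Of the 3160 promoters with at most 2 CpG, 88 were in higher windows, the printed Mpo promoter among them. The developmental transcription factors held a median of 25 CpG and the housekeeping genes 24, while their median log2 ratios were -3.65 and 1.37 (-0.12 and 4.91 by the silent families).

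Short sequence motifs were searched on both strands of the same promoters and are letters in the sequence, not known sites. The ETS core CCGGAA was in 33.5% of promoters of higher windows, 17.2% of intermediate and 6.34% of silent-level windows, and in 18.6% of all. The GC box GGGCGG was in 69.8%, 44.9% and 23.8%, and in 45.1% of all. TATAAA ran the other way, with 6.21%, 11.3% and 21.5%, and 13.8% of all, as did GATAA with 13.8%, 22.9% and 32.3%, and 23.6% of all. CCAAT was in 40.1%, 38.5% and 39.5%, and in 39.6% of all. CAGGTG, the E-box that Snail proteins recognise and a case of the wider E-box CANNTG, was in 15.1%, 22.9% and 22.1%, and in 19.6% of all, and CANNTG in 59.3%, 73.3% and 76.8%, and in 69.5% of all. Among promoters with more than 20 CpG, 3579 were in higher and 825 in silent-level windows. There the GC box was in 82.3% and 84.2%, CCGGAA in 36.6% and 12.0%, and CAGGTG in 14.2% and 25.1%. Of the printed promoters, Snai1 and Fcer1a hold CAGGTG, Twist1 holds CCGGAA, Cpa3 and Fcer1a hold GATAA and TATAAA, and Twist1 holds TATAAA.

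H3K4me2 was also set beside Snai1 binding in the same cells, from the deposited wild-type Snai1 peak list, which has no replicate check. A peak lay within 5 kb of the start in 1376 of 9218 higher windows (14.9%, exact 95% interval 14.2 to 15.7%), in 287 of 4587 intermediate windows (6.26%, 5.57 to 7.00%) and in 59 of 11254 silent-level windows (0.524%, 0.399 to 0.676%). For genes without a listed promoter the distance was taken from either gene end, and the intervals cover counting error only. Ranked by the log2 ratio, the highest 2506 windows had a peak in 483 cases (19.3%) and the lowest 2506 in 5 (0.200%). With the mutant Snai1 peak list, whose peaks lay at more windows of every level, the shares were 54.5%, 26.5% and 2.28% (5021, 1216 and 257 windows). The lists were not brought to an equal number of peaks, so their shares are not comparable as binding strength.

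The most similar mark is H3K4me1, compared directly with no IgG in the fit. By column totals 6167 windows (23.0%) were higher in H3K4me2 than in H3K4me1 and 11028 (41.1%) were lower, and scaled to the silent families 11337 were higher and 3872 lower. At least 2-fold differences by column totals were 777 (2.89%) and 8037 (29.9%). The higher windows of H3K4me2 over IgG had a median of 80.7 CPM in H3K4me2 and 62.9 CPM in H3K4me1. The intermediate windows had 21.0 CPM in H3K4me2 and 38.3 CPM in H3K4me1 by column totals. The levels were set with H3K4me2 itself, so these medians are a description.

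The windows most tilted to H3K4me2 were those of Tsc22d2, the homeobox gene Tgif1, Sox4, Bcl11a, the chromatin protein gene Hmga2 and Msl2. Tsc22d2 had 194.5, 203 and 185 CPM in the H3K4me2 libraries, against 54.5, 51.5 and 53.8 CPM in the H3K4me1 libraries (log2 1.87, edgeR adjusted p = 1.53e-06), and the others lay between 1.77 and 1.82. Most tilted to H3K4me1 were Ptgds (-3.63), Mrvi1 (-3.55), Tmem86b (-3.54), Htra3 (-3.49), Olfr633 (-3.42) and Pitpnm2os2 (-3.41). Ptgds, a prostaglandin synthase gene, had 10.8, 9.46 and 10.7 CPM in the H3K4me2 libraries, against 122.5, 130.1 and 133 CPM in the H3K4me1 libraries. The choice of these 12 required groups without overlap.

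Progenitor genes took both directions between the marks. Of the 25 stem and progenitor transcription factors, 14 were higher in H3K4me2 and 6 lower than in H3K4me1 (median log2 0.47, all windows -0.54), while of 24 neutrophil and monocyte genes 1 was higher and 21 lower (-1.39). Of all windows 23.0% were higher and 41.1% lower. Kit (1.09), Tal1 (1.08), Zeb2 (1.56) and Myc (1.6) were higher in H3K4me2. Lmo2 had 11.3, 19.7 and 20.4 CPM in the H3K4me2 libraries, against 73.5, 83.5 and 77.9 CPM in the H3K4me1 libraries (log2 -2.21), and Gfi1 lay at -1.79.

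With no IgG library of the other cells analysed here, only H3K4me2 levels can be put beside those of wild-type Snai1 cells. Kit averaged 161 ± 8.77 CPM with wild-type Snai1, 161 ± 3.17 CPM with mutant Snai1 and 174.5 ± 6.29 CPM with empty vector (SD, n = 3 each). Gfi1 averaged 17.4 ± 2.62, 16.1 ± 3.32 and 34.2 ± 14.7 CPM in the same order, and Lmo2 17.2 ± 5.05, 51.3 ± 34.0 and 16.8 ± 3.55 CPM. In replicate 1 the 3 kinds of cell stood close together at Lmo2, with 11.3 CPM for wild-type Snai1, 12.0 CPM for mutant Snai1 and 12.8 CPM for empty vector. At Gfi1 replicate 1 had 20.2, 12.4 and 17.6 CPM in the same order. The higher empty-vector mean of Gfi1 came from replicates 2 and 3, with 45.4 and 39.6 CPM. These differences between cells were not tested here.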

How the data were processed

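ChIP-seq of H3K4me2, H3K4me1 and IgG in wild-type Snai1 HPC7 cells was analysed. The deposited values are raw read counts, made with Subread and featureCounts on GRCm38 (mm10), tools that the submitters' processing notes name without a version. Per the labels' protocols, methylation libraries were made at BGI by a variation of the Illumina protocol. The table's name gives 5 kb around the start, and it holds no coordinates. Neighbouring windows had near-equal IgG deviations up to starts about 10 kb apart, so such windows were taken to share reads. The Snai1 peak lists, called with MACS2 per the submitters' processing notes, hold 1 list per construct, whose deposited -log10 q values were used as a filter in 1 alternative, and whose deposited positions gave the distances.

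Counts were tested with edgeR 4.0.16 (R 4.3.3), quasi-likelihood F-test, two-sided, Benjamini-Hochberg adjusted over all 26841 windows, with the column total as library size and no TMM factor. The fit held the 5 (or, between marks, 6) libraries compared. A check on simulated data drew independent libraries without the spread of replicate 1, so it says nothing on that spread. Alternatives were TMM factors, library sizes from all 1476 silent receptor windows of the count table, DESeq2 1.42.0, other filters, all 8 libraries, a replicate block and leaving out each library. Python 3.11.15 (pandas 2.3.3, scipy 1.17.1) was used for the rest. Replicate 1 pairs the marks: deviations from the group mean correlated between same-numbered H3K4me2 and H3K4me1 libraries at 0.64, 0.37 and 0.30. H3K4me2 replicate 3 correlated at 0.32 with H3K4me1 replicate 2, so pairing by number was not shown for replicates 2 and 3. The pairing of replicate 1 was found in the data and is not stated in the labels. The number of libraries, 2 for IgG, limits the precision.

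Symbols came from RefSeq GRCm38.p6 (25059 members matched), and promoters for 18369 members. The table has no column from outside the series, and 14 members have counts equal to those of an earlier window.

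The windows, lists and named genes were chosen with earlier results of these data known. Genes were named from 15 fixed by name, the 10 largest and 10 smallest called ratios at a mean IgG count of at least 20, the 10 highest called H3K4me2 levels, 6 per direction between the marks (mean CPM at least 2 times the silent-family median), all without overlap between groups and without predicted genes, and from the 3 highest and 3 lowest members of each of 22 lists. Markers of the cell types and a few other genes are also named. No list was tested as a set.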

Additional observations from a re-analysis of the deposited data

How the results depend on the processing

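The scaling decides the count of lower windows. Scaled to the silent receptor families, 14465 windows were higher and 119 lower than IgG, and 11337 higher and 3872 lower than H3K4me1; DESeq2 gave 6279 lower than H3K4me1. TMM factors and DESeq2 gave 11600 and 12348 windows higher and 13680 and 11857 lower than IgG. The share of promoters with more than 20 CpG in higher windows was 70.5%, and 81.0% with DESeq2, 79.5% with TMM factors, 83.8% with the silent families, 69.1% with replicates 2 and 3 summed and 66.2 to 70.3% leaving out 1 library. At 2 or fewer CpG it was 2.79%, and 6.71%, 5.00% and 14.3% with DESeq2, TMM factors and the silent families. Snai1 peaks at -log10 q of at least 10 lay at 6.29% of higher and 0.527% of lower windows, peaks within 2500 bases at 13% and 0.790%, mutant-list peaks at 54.5% and 4.84%, against 14.9% and 1.24%.

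Log2 ratios that turned sign with DESeq2 were Snai1 1.05, Gfi1 0.44, Lhx2 1.29, Gata1 1.68, Lmo2 0.43, Ly6a 0.74, Lck 1.57, Cd3d 1.53, Fgb 1.18, Ash2l 0.83, Snai3 1.05, Ptgds 0.02 and Tmem86b 0.22. With TMM factors they were Snai1 0.23, Lhx2 0.46, Gata1 0.87, Lck 0.76, Cd3d 0.72, Fgb 0.38, Ash2l 0.01 and Snai3 0.21. With the silent families they were Snai1 2.78, Gfi1 2.14, Lhx2 2.99, Gata1 3.46, Lmo2 2.24, Il7r 0.02, Tek 0.07, Ly6a 2.45, Hba-a2 0.05, Gp6 0.06, Tubb1 0.90, Ebf1 0.00, Lck 3.32, Cd3d 3.29, Fgb 3.00, Ywhaz 0.94, Rab7 1.11, Dpy30 0.74, Ash2l 2.56, Cdkn2b 0.19, Snai3 2.71, Ptgds 1.72, Mrvi1 1.69, Tmem86b 2.00, Htra3 0.60 and Olfr633 0.75. These follow from the construction of the scalings. Leaving out 1 library, Gata1 ran from -0.32 to 0.03. The medians of all 22 lists moved under these 3 scalings.

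Leaving out 1 library gave 8735 to 9563 windows higher and 14553 to 15123 lower than IgG, and 5317 to 6366 higher and 8386 to 11537 lower than H3K4me1. With the replicate block there were 9271 higher and 15028 lower, and 1 named gene lost and 2 gained a call. Across windows, deviations of same-numbered H3K4me2 and IgG libraries correlated at 0.03 and -0.14. Replicate 1 of both was nevertheless high on chromosome 8, at 1.48 for H3K4me2 and 1.51 for IgG relative to the median chromosome. Between the marks the block gave 6996 higher and 13565 lower and changed the call of none of 18 named genes. With replicates 2 and 3 summed there were only 4405 higher and 8081 lower between the marks. The lone IgG library in 2 of these fits and the missing window coordinates limit the results.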

Other observations

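Windows of small and noncoding genes differed by class. Of 123 small nucleolar RNA windows, 65.9% were higher in H3K4me2 than in IgG, against 40.7% of 20831 protein-coding windows (35.4% of all windows). Many small nucleolar RNAs lie in introns of host genes. Of 2073 long noncoding RNA windows 24.3% were higher, 19.9% intermediate and 55.8% at silent level. Of 643 microRNA windows 14.5% were higher and 66.3% at silent level.

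Antigen receptor segments were rarely higher and often intermediate, beside 35.4% higher, 18.5% intermediate and 46.1% at silent level over all windows. Of 358 V segment windows 2 were higher, 31.3% were intermediate and 68.2% were at silent level. Of 82 J segment windows none was higher by edgeR's adjusted p, 42.7% were intermediate and 57.3% were at silent level. Pseudogenes had 3.35% of 418 windows higher, and transcribed pseudogenes 6.70% of 373. Segments and pseudogenes have near-identical copies, and how the authors counted reads that match several places is not given in the sources used here.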
